A study of Homo sapiens with 43 samples.

Results

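HMGXB3, PRPF38B, SRCAP and U2SURP are 4 human genes whose RNA carried a site enriched in all 3 eCLIP libraries of the RNA-binding protein HNRNPC. The genes were chosen by these HNRNPC peak values, which are therefore given as a description with no test. Peaks were assigned to a gene when they overlapped it by at least 1 nt on the same strand, at chr5:149380169-149432835 for HMGXB3, chr1:109234932-109244425 for PRPF38B, chr16:30709530-30751450 for SRCAP and chr3:142720372-142779567 for U2SURP, all on the plus strand of hg19. This gave 1829 of the 1430241 peaks in the 25 deposited lists, of which 755 lay in SRCAP, 678 in U2SURP, 231 in PRPF38B and 165 in HMGXB3. SRCAP spans 41.9 kb, U2SURP 59.2 kb, HMGXB3 52.7 kb and PRPF38B 9.49 kb.

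eCLIP (enhanced crosslinking and immunoprecipitation) maps the RNA that a protein touches in living cells. All libraries came from HEK293T, a human embryonic kidney line, crosslinked with ultraviolet light before the protein was immunoprecipitated and the complexes were cut from a gel. In the tagged libraries an epitope tag had been integrated into the gene of the protein with CRISPR/Cas9, per the series title, and an antibody against the tag was used. The question was whether tag antibodies find the sites that antibodies against the protein find in wild-type cells. Tags were used for HNRNPC V5 isoform 1, HNRNPC V5 isoform 2, RBFOX2 V5, LIN28 V5, FMR1 FLAG and DGCR8 FLAG. The libraries called wild type used an antibody against each of the same 5 proteins. The LIN28 paralog is not named in the labels, nor whether a tagged line was 1 clone. A further 14 libraries, labelled FLAG-only or V5-only without a protein name, covered 7 overlapping gel ranges, each 75 kDa wide, between 25 and 250 kDa. Whether their cells carried a tag is not stated. Each range had 1 FLAG-only library, 1 V5-only library and 1 input, which both shared. Each protein and tag state had 1 library, and so had each gel range with each tag antibody, so no value below has a replicate error. An SD over gel ranges is the spread between overlapping ranges.

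HNRNPC is an abundant nuclear protein that packages nascent transcripts and binds runs of uridine, and it is known for masking cryptic splice sites within introns. Of the 4 genes, 2 code for splicing factors and the other 2 for proteins that act on chromatin or carry a DNA-binding fold. PRPF38B is a splicing factor of the PRP38 family, and U2SURP is associated with the U2 snRNP, the particle that recognises the branch point of introns. SRCAP is the ATPase of a chromatin remodelling complex that exchanges a histone variant into nucleosomes, and HMGXB3 carries an HMG box, a DNA-binding fold. Among the other proteins profiled, FMR1 represses translation of messenger RNAs, RBFOX2 regulates splicing, LIN28 blocks the maturation of let-7 microRNAs and also binds mRNAs, and DGCR8 recruits DROSHA to primary microRNA hairpins.

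The lists held between 25723 and 100860 peaks, each with the authors' −log10 p and the authors' log2 fold over the size-matched input. A peak was called significant if its −log10 p reached 3 and its log2 fold also reached 3, which is 8-fold over input. Between 375 and 17354 peaks of a list met this. Every value of a peak below is the authors' own and serves to describe or rank peaks within its list. The number of reads behind a peak is unknown, and intervals on shares are 95% Wilson intervals that cover counting error over peaks only. The files do not say which exon or intron a position falls in, and no annotation of hg19 was used here.

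Each of the 4 genes held exactly 1 site significant in all 3 HNRNPC libraries. At each site every library contributed 1 peak, and its log2 fold lay between 3.66 and 5.03. The 4 sites lay between 42.5% and 55.2% of the way along their genes.

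The PRPF38B site, at chr1:109240175-109240231, lay 5.24 kb into the gene. Its log2 fold was 4.24 with V5 isoform 1, 3.88 with V5 isoform 2 and 5.03 with the wild-type library, where it corresponds to 32.7-fold over input. The −log10 p was 5.31 with V5 isoform 1, 3.90 with V5 isoform 2 and 10.4 with the wild-type library. By fold the peak ranked 21 of 375 significant peaks with V5 isoform 1, 245 of 1168 with V5 isoform 2 and 29 of 1357 with the wild-type library. It thus stood near the top of the wild-type and V5 isoform 1 lists and lower in the V5 isoform 2 list.

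The U2SURP site, at chr3:142750923-142750973, lay 30.6 kb into the gene and had the same order of libraries. Its log2 fold was 4.39 with V5 isoform 1, 3.66 with V5 isoform 2 and 4.96 with the wild-type library. The −log10 p was 5.99 with V5 isoform 1, 3.25 with V5 isoform 2 and 9.77 with the wild-type library. The ranks were 12 of 375 with V5 isoform 1, 439 of 1168 with V5 isoform 2 and 36 of 1357 with the wild-type library. The V5 isoform 2 peak, with both the lowest log2 fold and the lowest −log10 p of the 12 peaks at the 4 sites, was the one nearest to the threshold.

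The SRCAP site, at chr16:30730233-30730285, lay 20.7 kb into the gene. Here the log2 fold was 3.97 with V5 isoform 1, 3.68 with V5 isoform 2 and 4.25 with the wild-type library. The peak ranked 53 of 375 with V5 isoform 1, 438 of 1168 with V5 isoform 2 and 171 of 1357 with the wild-type library. The −log10 p was highest in V5 isoform 2, at 9.78, against 4.20 in V5 isoform 1 and 5.57 in wild type. Fold and −log10 p therefore ordered the 3 libraries differently at this site.

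The HMGXB3 site, at chr5:149402570-149402621, lay 22.4 kb into the gene and was the most even of the 4. Its log2 fold was 3.97 with V5 isoform 1, 4.15 with V5 isoform 2 and 3.94 with the wild-type library. The −log10 p was 4.20 with V5 isoform 1, 5.00 with V5 isoform 2 and 4.32 with the wild-type library. Its rank was 53 of 375 with V5 isoform 1, 106 of 1168 with V5 isoform 2 and 344 of 1357 with the wild-type library, so this site stood relatively higher in both tagged lists than in wild type. In V5 isoform 1 the HMGXB3 and SRCAP peaks had identical values, which 7 significant peaks of that list shared.

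The edges of the peaks matched closely between libraries. In eCLIP, reverse transcription often stops at the crosslinked base, so the upstream edge of a peak reflects where reads began. The upstream edges of the 3 peaks lay within 0 to 2 nt of each other at the 4 sites, and the downstream edges within 3 to 8 nt. In SRCAP all 3 peaks began at the same base, 30730233. The longest peak was in wild type at PRPF38B, SRCAP and U2SURP and in V5 isoform 1 at HMGXB3.

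**Figure D1:**
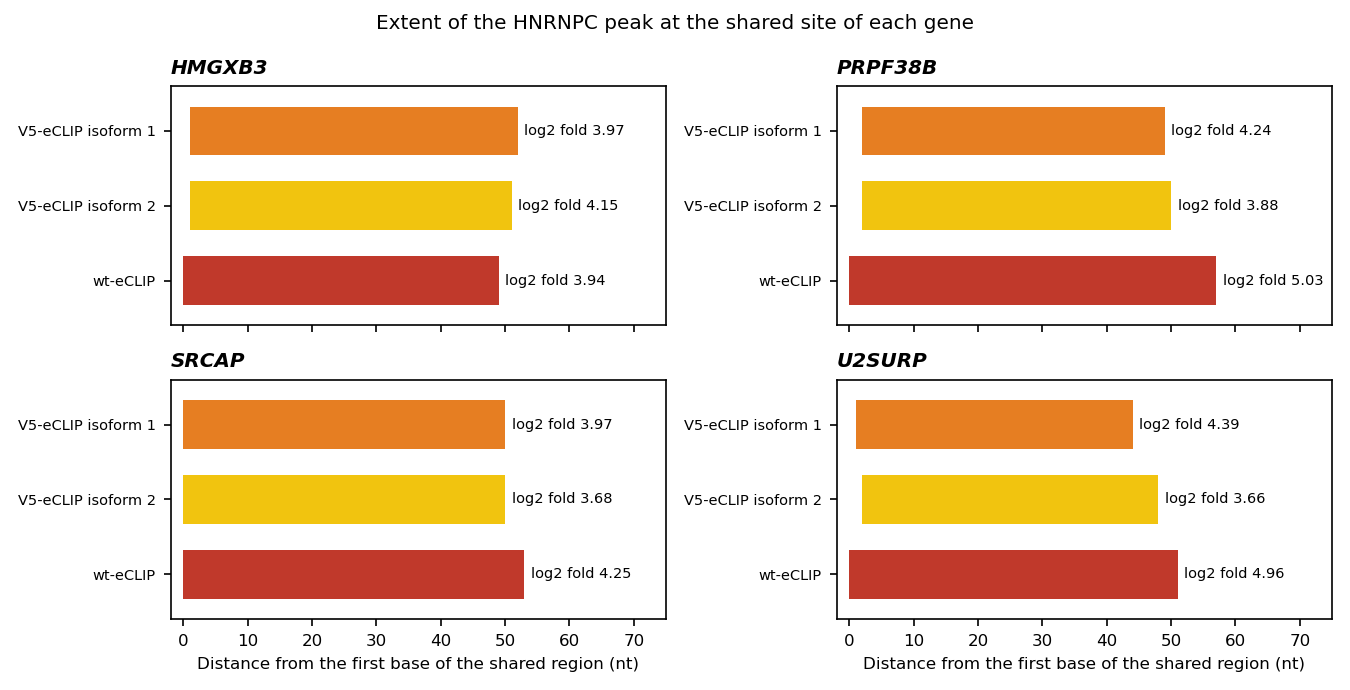
Extent of the peak of each HNRNPC library at the shared site of each gene, in nt from the first base of the merged region, with the authors' log2 fold printed beside each bar. Bars run from top to bottom as V5 isoform 1, V5 isoform 2 and wild type, 1 library each, and their left edges differ by 0 to 2 nt within a gene.

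These 4 sites belong to a small class. Significant HNRNPC peaks that overlapped or adjoined formed 2366 regions over the genome, of which 2143 were significant in 1 library, 194 in 2 and 29 in all 3. By mean log2 fold over the 3 libraries, the sites of PRPF38B (4.38), U2SURP (4.34), HMGXB3 (4.02) and SRCAP (3.97) ranked 2, 3, 6 and 7 of the 29. The mean log2 fold ran from 3.97 to 4.38 at the 4 sites, against a median of 3.55 and a range of 3.02 to 4.54 at the 25 regions elsewhere. The 4 merged regions were 51 to 57 nt wide, with a median of 52.5 nt, against a median of 50.0 nt and a range of 39 to 133 nt elsewhere. The spread of upstream edges had a median of 1.5 nt at the 4 sites and 3 nt at the other 25, where it reached 81 nt. Each library gave 1 peak at 4 of 4 sites in the 4 genes and at 17 of the 25 regions elsewhere. Since the genes were chosen from this class, these values place the sites among the 29 and test nothing.

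**Figure D2:**
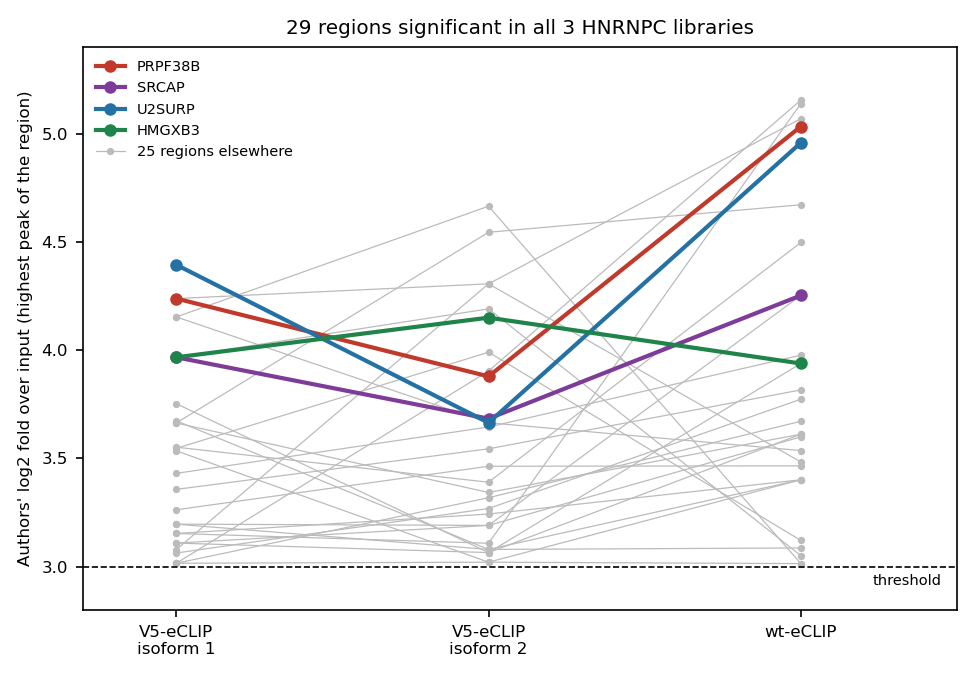
Authors' log2 fold over input (vertical axis) of the highest peak in each of the 3 HNRNPC libraries (horizontal axis) for the 29 regions significant in all 3, with 1 line per region. The coloured lines of PRPF38B and U2SURP are high in V5 isoform 1 and wild type and lower in V5 isoform 2, that of HMGXB3 stays between 3.94 and 4.15, and the 25 grey lines are the regions elsewhere.

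SRCAP held more HNRNPC sites than the other genes. The 3 HNRNPC libraries had 20 significant peaks among their 240 peaks in the 4 genes, and 11 of the 20 lay in SRCAP. SRCAP also had 110 of the 240 called peaks. Its significant share was 10.0%, equal to that of PRPF38B, against 8.11% in HMGXB3 and 4.76% in U2SURP. In SRCAP, V5 isoform 1 had 3 significant of 36 peaks, against 0.760% of its whole list. V5 isoform 2 had 6 of 39, which is 15.4% (7.25% to 29.7%), against 1.97% of its list, and wild type had 2 of 35, against 2.15% of its list. The 6 peaks of V5 isoform 2 formed 5 regions, because peaks at 20.3 kb adjoined. In HMGXB3, PRPF38B and U2SURP each library had 1 significant peak, the shared site itself. In HMGXB3 this was 1 of 10 called peaks with V5 isoform 1, 1 of 15 with V5 isoform 2 and 1 of 12 with the wild-type library. In PRPF38B it was 1 of 10 with V5 isoform 1, 1 of 11 with V5 isoform 2 and 1 of 9 with the wild-type library, and in U2SURP 1 of 20 with V5 isoform 1, 1 of 18 with V5 isoform 2 and 1 of 25 with the wild-type library. The choice of the genes used these counts, so nothing is read from their excess over the lists.

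The other SRCAP sites were shared less widely. At chr16:30710976-30711010, 1.45 kb into the gene, V5 isoform 1 had a log2 fold of 3.75 and wild type 3.82, whereas the V5 isoform 2 peak at the same place had 1.76 and a −log10 p of 1.35, below both thresholds. The other 5 regions were significant in 1 library each, 4 of them in V5 isoform 2. Those of V5 isoform 2 lay 3.44, 19.7, 20.3 and 21.3 kb into the gene, with log2 folds of 4.11, 3.11, 3.08 and 3.21. That of V5 isoform 1 lay at 29.2 kb, with a log2 fold of 3.32. V5 isoform 2 thus had 4 of its 5 SRCAP regions within 1.65 kb of the gene, around the shared site at 20.7 kb.

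At these 5 regions the remaining HNRNPC libraries mostly had a called peak below the threshold. At 21.3 kb, V5 isoform 1 had a log2 fold of 3.50 with a −log10 p of 2.88, which is just outside the threshold, and wild type had 1.90 with 1.60. At 3.44 kb, V5 isoform 1 had a log2 fold of 2.63 and wild type 2.19. At 29.2 kb, V5 isoform 2 had a log2 fold of 2.21 with a −log10 p of 5.56 and wild type had 1.90 with 2.29. The region at 19.7 kb had a V5 isoform 1 peak with a log2 fold of 1.43. The region at 20.3 kb had V5 isoform 1 at 2.92 and wild type at 0.82. Each of the 5 regions thus had a called peak in at least 1 further HNRNPC library.

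No significant peak of the 22 libraries outside HNRNPC overlapped any of the 10 HNRNPC regions in the 4 genes, a count of 0 that allows a share of up to 30.0%. Elsewhere 136 of 2356 HNRNPC regions, 5.77% (4.90% to 6.79%), overlapped one, as did 2 of the 25 elsewhere that were significant in all 3 libraries. With 10 regions this does not set the 4 genes apart. At SRCAP and U2SURP no other library had called any peak on the shared site. At the HMGXB3 site V5-only at 125-200 kDa had a peak with a log2 fold of 3.37 and a −log10 p of 1.93. At the PRPF38B site RBFOX2 V5 had a log2 fold of 2.47 with a −log10 p of 1.80, and V5-only at 150-225 kDa had 1.47 with 0.694.

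The nearest significant peak of another library lay 22 nt downstream of the HNRNPC site in PRPF38B, 652 nt away in U2SURP, 1574 nt away in SRCAP and 4392 nt away in HMGXB3. The PRPF38B neighbour came from V5-only at 75-150 kDa, at chr1:109240254-109240306, with a log2 fold of 4.13 and a −log10 p of 3.38. It was the only significant peak of the 22 other libraries in PRPF38B. The neighbours in U2SURP and HMGXB3 came from FMR1 FLAG, with log2 folds of 3.33 and 3.54, and that in SRCAP from RBFOX2 wild type, with a log2 fold of 3.0.

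**Figure D3:**
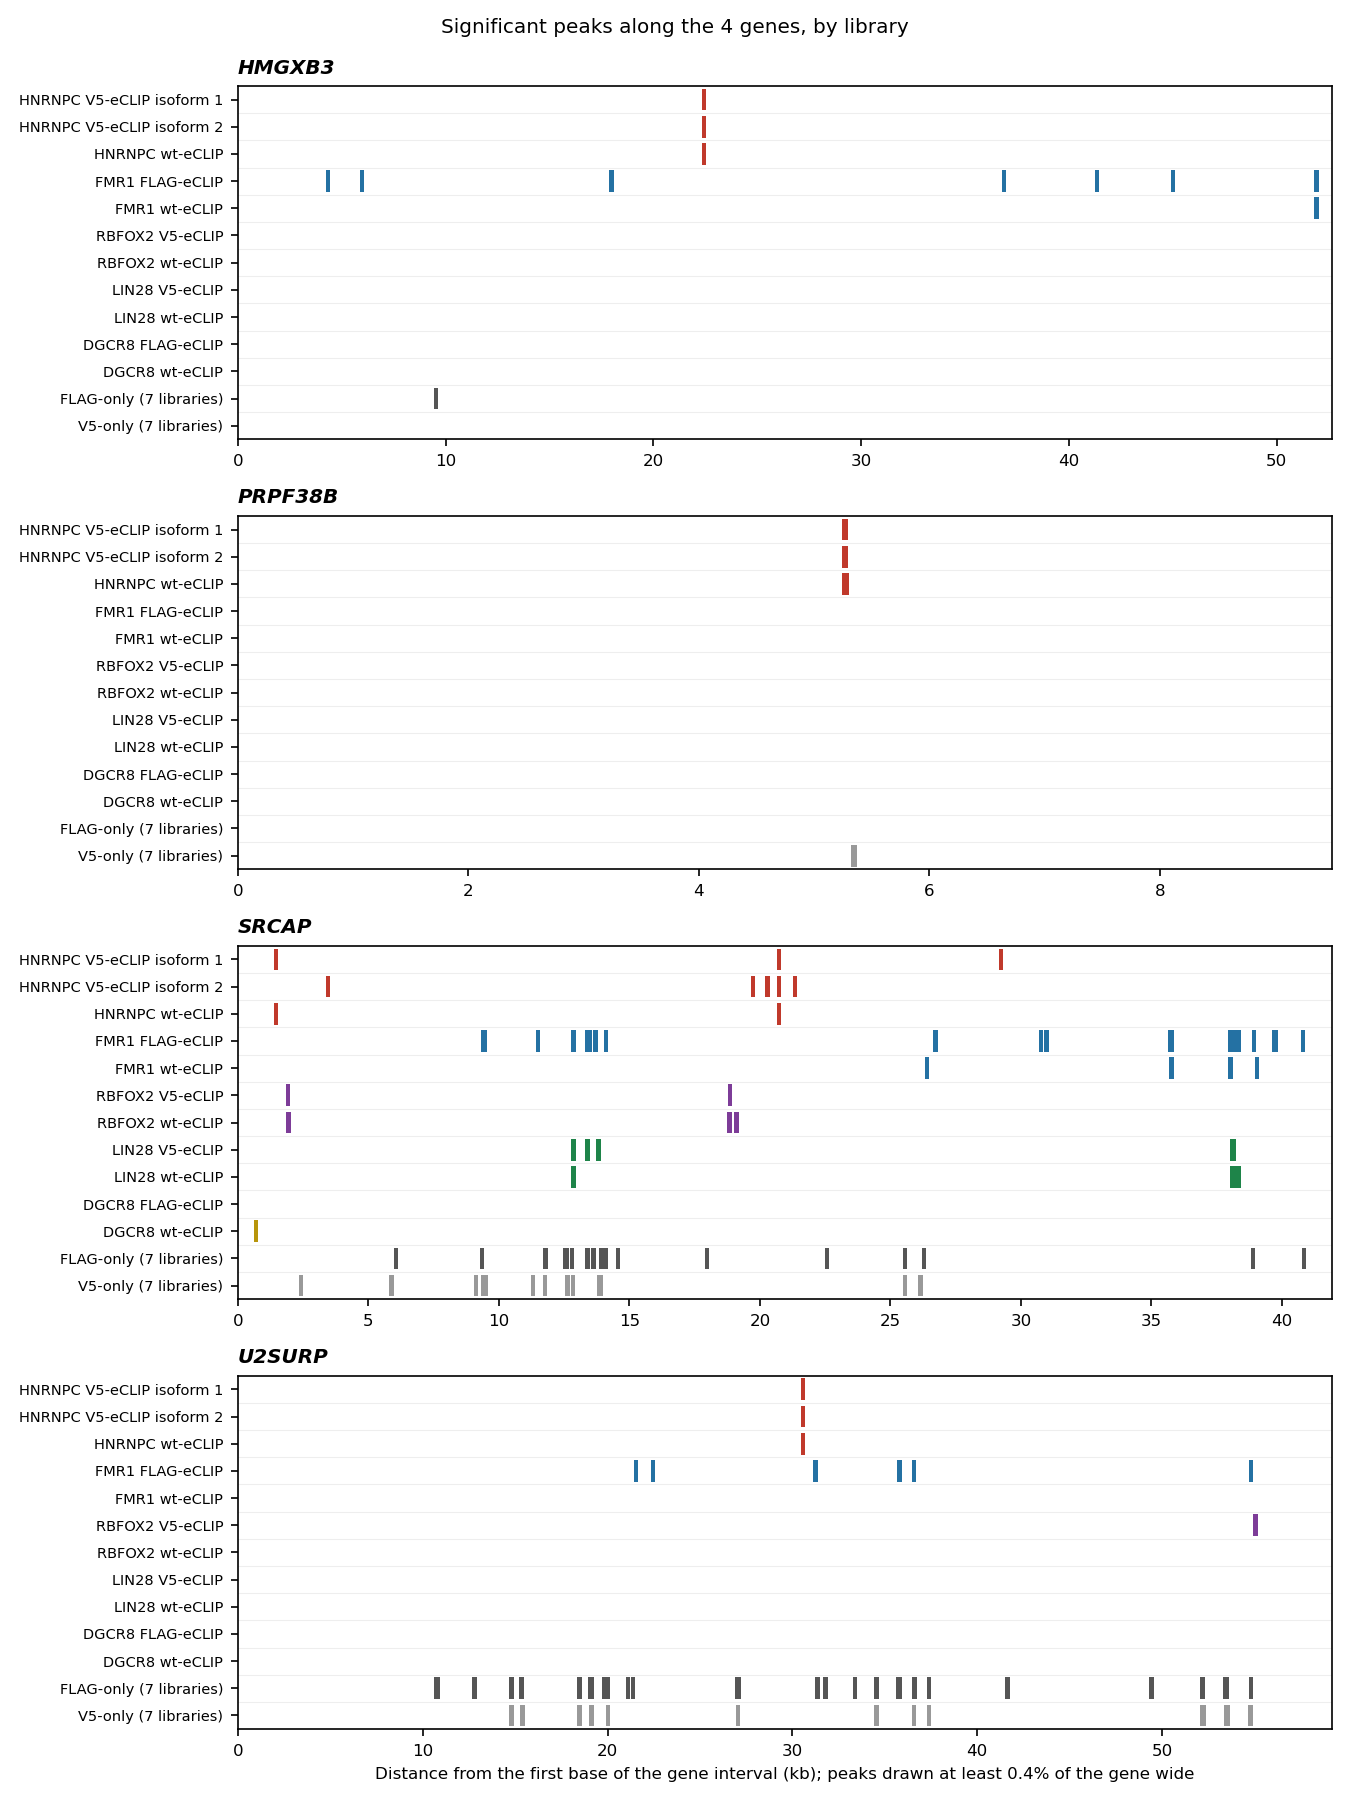
Positions of significant peaks along each gene, in kb from the first base of the gene interval, with 1 row per RNA-binding protein library and 1 row each for the 7 FLAG-only and 7 V5-only libraries together. Peaks are drawn at least 0.4% of the gene wide so that they can be seen. The 3 HNRNPC rows share 1 position in each gene, where no other row has a mark.

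The other 4 proteins had significant peaks in SRCAP, HMGXB3 and U2SURP, and the HNRNPC rule used none of their values. Their 8 libraries had 60 significant peaks of 535 called in the 4 genes, 11.2% (8.81% to 14.2%). The shares of their whole lists ran from 1.78% in DGCR8 FLAG to 17.2% in FMR1 FLAG. Of the 60, 45 lay in SRCAP, 8 in HMGXB3, 7 in U2SURP and 0 in PRPF38B. SRCAP also held 250 of the 535 called peaks. PRPF38B had 66 called peaks in these libraries, so the count of 0 allows a share of up to 4.55%. The share over the 8 lists together was not computed, so these pooled counts are not read as high or low.

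FMR1 gave the most sites. In SRCAP, FMR1 FLAG had 23 significant of 67 peaks, 34.3% (24.1% to 46.3%), against 17.2% of its whole list. FMR1 wild type had 4 of 58 there, against 5.23% of its list. In HMGXB3, FMR1 FLAG had 7 of 22, 31.8% (16.4% to 52.7%), and FMR1 wild type had 1 of 9. In U2SURP, FMR1 FLAG had 6 of 46, 13.0%, and FMR1 wild type had 0 of 29. In PRPF38B both had 0, among 10 peaks in FMR1 FLAG and 6 in FMR1 wild type. The FMR1 FLAG interval in SRCAP lay above the share of the list, and those in HMGXB3 and U2SURP (6.12% to 25.7%) included it.

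The FMR1 sites were spread along HMGXB3 and gathered in parts of SRCAP. In HMGXB3 the 7 FMR1 FLAG peaks lay between 4.31 and 52.0 kb, with log2 folds from 3.27 to 4.74. The most downstream one overlapped the only FMR1 wild-type peak, and together they covered chr5:149432059-149432129, near the end of the gene. There the log2 fold was 3.27 in FMR1 FLAG and 3.93 in FMR1 wild type. In SRCAP the FMR1 wild-type peaks lay at 26.4, 35.8, 38.0 and 39.0 kb, with log2 folds of 3.69, 3.69, 3.31 and 3.49. Those at 35.8 and 38.0 kb overlapped FMR1 FLAG peaks with log2 folds of 3.35 and 4.12. In SRCAP 2 of 23 FMR1 FLAG peaks overlapped a wild-type one and 2 of 4 wild-type peaks overlapped a FLAG one. Over the whole lists these shares were 13.2% and 67.3%.

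LIN28 was found significant in SRCAP and in none of the other 3 genes. LIN28 V5 had 7 of 28 peaks significant in SRCAP, 25.0% (12.7% to 43.4%), against 10.6% of its list. LIN28 wild type had 5 of 17, 29.4% (13.3% to 53.1%), against 4.73% of its list. In HMGXB3, PRPF38B and U2SURP together LIN28 called 36 peaks with V5 and 35 in wild type without a significant one. Gene by gene, the intervals reached from 16.8% to 43.4% in LIN28 V5 and from 18.4% to 29.9% in wild type. All included the share of the list, so in no single gene can the absence be told from it. The 3 genes together were not compared with the lists.

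The LIN28 sites of SRCAP fell in 2 stretches. The strongest lay about 38.1 kb into the gene, where LIN28 V5 had a peak with a log2 fold of 5.92 (rank 420 of 7780 significant peaks) and LIN28 wild type one of 4.63 with a −log10 p of 47.5. FMR1 FLAG had its highest SRCAP peak at the same place, with a log2 fold of 5.83, rank 108 of 17354. The other stretch began at 12.8 kb, where the highest log2 fold was 4.30 in LIN28 V5, 3.63 in LIN28 wild type and 3.98 in FMR1 FLAG. LIN28 V5 also had peaks at 13.4 and 13.8 kb, with log2 folds of 3.64 and 3.48, where LIN28 wild type had no significant one. Tag-only libraries were significant in this stretch as well. At 12.8 kb FLAG-only at 75-150 kDa had a log2 fold of 3.36 and V5-only at 125-200 kDa one of 3.06. At 13.4 kb FLAG-only at 125-200 kDa had 3.10, and from 13.8 to 13.9 kb FLAG-only at 125-200 kDa had 3.57 and V5-only at 125-200 kDa had 3.14 and 3.67. No tag-only library had a significant peak on the LIN28 peaks at 38 kb.

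In SRCAP the tagged and wild-type LIN28 libraries overlapped at most of their peaks. LIN28 V5 overlapped wild type at 5 of its 7 peaks, and LIN28 wild type overlapped V5 at 4 of its 5, against 28.8% and 81.8% over the whole lists. LIN28 peaks also lay on FMR1 FLAG peaks. This held for 6 of 7 LIN28 V5 peaks and 5 of 5 LIN28 wild-type peaks in SRCAP, against 13.3% and 13.4% over the whole LIN28 lists. Taken from the other side, 6 of the 23 FMR1 FLAG peaks lay on LIN28 V5 peaks and 5 of 23 on LIN28 wild-type peaks, against 5.97% and 1.72% of the whole FMR1 FLAG list. None of the 7 LIN28 V5 peaks overlapped any of the 4 FMR1 wild-type peaks in SRCAP. The share for this pair over the whole lists was not computed, so nothing is read from its absence. Significant tag-only peaks lay on 4 of the 7 LIN28 V5 peaks, 2 of the 5 LIN28 wild-type peaks and 7 of the 23 FMR1 FLAG peaks of SRCAP, and on 0 of its 4 FMR1 wild-type peaks. How often peaks of the whole LIN28 and FMR1 lists lie on tag-only peaks was not computed, so these counts do not set SRCAP apart. What the tag-only signal contributes to these positions was not tested. Neighbouring peaks share transcript and often 1 stretch of RNA, so they are not independent, and the overlaps were not tested.

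RBFOX2 had a pair of SRCAP sites seen with both antibodies. There 2 of 2 RBFOX2 V5 peaks overlapped a wild-type one, and 2 of 3 wild-type peaks overlapped a V5 one. Over the whole lists these shares were 46.6% and 29.6%, from which counts this small cannot be told apart. The site 1.91 kb into the gene had a log2 fold of 4.82 in RBFOX2 V5, rank 233 of 1900, and 3.72 in RBFOX2 wild type. The site at 18.8 kb had 3.11 in RBFOX2 V5 and 4.96 in RBFOX2 wild type, rank 355 of 3049. The antibodies thus placed the sites in opposite order. RBFOX2 wild type had a further peak at 19.1 kb with a log2 fold of 3.0, just inside the threshold. RBFOX2 V5 had 2 of 31 significant in SRCAP, against 4.0% of its list, and RBFOX2 wild type 3 of 23, against 7.03% of its list. In U2SURP RBFOX2 V5 had 1 of 15, at 55.0 kb with a log2 fold of 3.39, and RBFOX2 wild type 0 of 13.

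DGCR8 had few significant peaks among few called ones, at shares that cannot be told from those of its lists. DGCR8 FLAG had 0 significant of 30 peaks in the 4 genes, which allows a share of up to 10%, with 1.78% of its list significant. DGCR8 wild type had 1 of 41, or 2.44%, against 4.16% of its list. The peak was located 0.683 kb from the start of SRCAP with a log2 fold of 3.13 and a −log10 p of 4.68. It was the most upstream significant peak in SRCAP.

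The tag-only libraries differed most in U2SURP. FLAG-only libraries had 68 significant of 522 peaks in the 4 genes, with 7.76% significant over their whole lists, and V5-only libraries had 32 of 532, with 3.14% over theirs. U2SURP accounted for 48 of the 68 in FLAG-only and 17 of the 32 in V5-only. That is 20.7% (16.0% to 26.4%) of 232 U2SURP peaks in FLAG-only and 7.83% (4.95% to 12.2%) of 217 in V5-only. Without the range of 125-200 kDa these shares were 14.2% (10.1% to 19.7%) in FLAG-only, against 5.78% of the remaining lists, and 2.14% (0.835% to 5.37%) in V5-only, against 1.82% of the remaining lists. The V5-only share above that of the lists thus rested on the library of 125-200 kDa. In each range FLAG-only and V5-only share an input, and neighbouring ranges share 50 kDa of the gel, so libraries are not independent.

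For the ranges in order from 25-100 kDa to 175-250 kDa, FLAG-only had 2, 8, 2, 8, 19, 3 and 6 significant peaks in U2SURP, and V5-only had 0, 1, 0, 1, 13, 1 and 1. FLAG-only was higher in 7 of 7 ranges, although the groups overlapped across ranges. FLAG-only averaged 6.86 ± 5.96 and V5-only 2.43 ± 4.69 significant peaks (SD, n = 7 ranges each), a difference of 4.43 ± 2.37. Flipping the signs of the 7 differences in an exact permutation test, two-sided, gave p = 0.0156, unadjusted and 1 of 4 such tests, the smallest p that 7 ranges allow. The FLAG-only lists also had a higher share of significant peaks than the V5-only lists in 7 of 7 ranges. Per 1000 significant peaks of a list, U2SURP had 1.68 ± 0.947 in FLAG-only and 0.833 ± 0.727 in V5-only, a difference of 0.849 with an exact sign-flip p of 0.0625 over 7 ranges. The difference in U2SURP thus did not pass 0.05 when counts were scaled to the number of significant peaks in each list.

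The range of 125-200 kDa had the most significant U2SURP peaks with both antibodies. There 19 of 28 U2SURP peaks were significant in FLAG-only, 67.9%, against 22.1% of that list, and 13 of 30 in V5-only, 43.3%, against 11.5% of that list. Both lists had the highest share of significant peaks of their antibody. Without this range the U2SURP difference was 4.17 (exact sign-flip p = 0.0313, n = 6 ranges), where 0.0313 is the smallest p that 6 ranges allow.

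**Figure D4:**
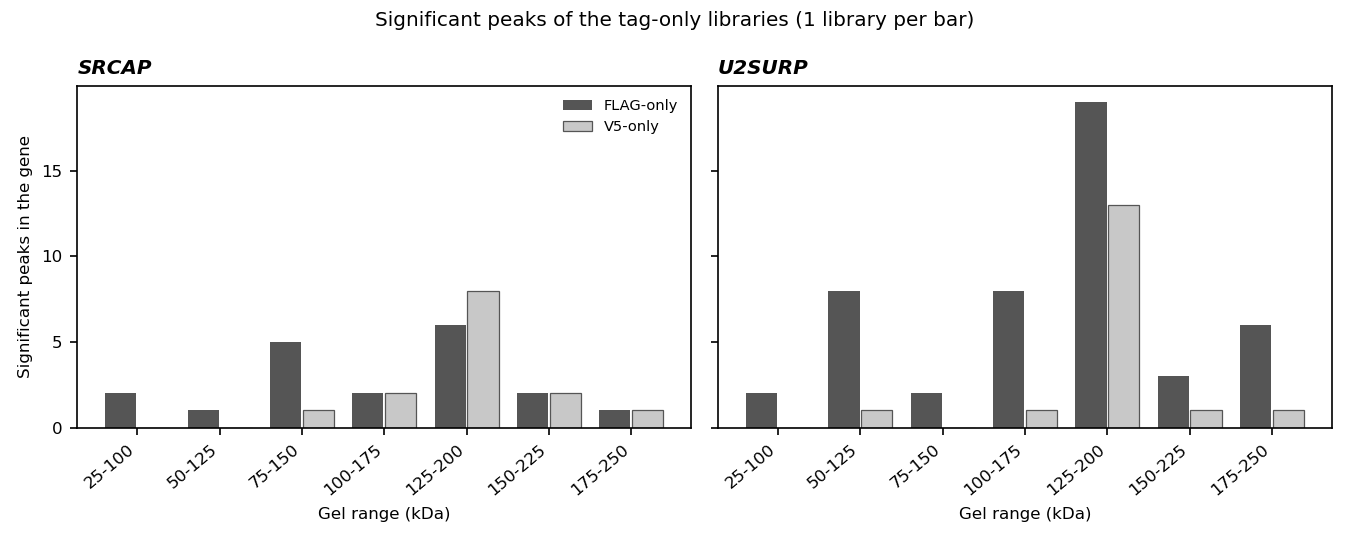
Number of significant peaks (vertical axis) in SRCAP and U2SURP for each gel range in kDa (horizontal axis), with FLAG-only bars left of V5-only bars and 1 library per bar. In U2SURP the FLAG-only bar is the taller in 7 of 7 ranges, and both bars are tallest at 125-200 kDa, with 19 and 13 peaks.

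In SRCAP the antibodies were closer. FLAG-only had 2, 1, 5, 2, 6, 2 and 1 significant peaks over the ranges from 25-100 kDa upwards, and V5-only had 0, 0, 1, 2, 8, 2 and 1. FLAG-only was higher in 3 ranges, equal in 3 and lower in 1. The means were 2.71 ± 1.98 in FLAG-only and 2.00 ± 2.77 in V5-only (SD, n = 7 ranges each), a difference of 0.714 ± 1.89 that did not pass the exact sign-flip permutation test (p = 0.5, unadjusted). Per 1000 significant peaks of a list, SRCAP had 0.821 ± 0.766 in FLAG-only and 0.821 ± 0.632 in V5-only (exact sign-flip p = 1.00, n = 7 ranges). Without the range of 125-200 kDa the difference was 1.17 (exact sign-flip p = 0.25, n = 6 ranges). HMGXB3 had 1 significant peak of 33 in FLAG-only and 0 of 42 in V5-only, where 0 allows up to 7.14%. Both intervals included the shares of the lists, 7.76% and 3.14%. PRPF38B had 0 of 60 in FLAG-only, which allows up to 5.00%, with an interval of up to 6.02%, against 7.76% of the lists. Without the range of 125-200 kDa it had 0 of 54, with an interval of up to 6.64% that included the 5.78% of the remaining lists. In V5-only PRPF38B had 1 of 75, with an interval of 0.236% to 7.17% that included 3.14%. The exact sign-flip p over the 7 ranges was 1.00 for both genes, so no difference was detectable in HMGXB3 or PRPF38B at these counts.

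The U2SURP sites of the tag-only libraries recurred at several positions, none of which was the HNRNPC site. At chr3:142735126-142735214, 14.8 kb into the gene, 4 FLAG-only libraries had a significant peak, with log2 folds from 3.06 at 150-225 kDa to 4.57 at 125-200 kDa. V5-only had 1 there, at 125-200 kDa with a log2 fold of 4.06. At 49.4 kb, 4 FLAG-only libraries had a significant peak, with log2 folds from 3.27 to 4.01, and V5-only had none. The highest tag-only fold in U2SURP lay between 19.987 and 20.027 kb, where FLAG-only at 50-125 kDa had a log2 fold of 5.48, rank 10 of its significant peaks, and V5-only of the same range had 4.25.

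Significant tag-only peaks lay on 3 of the 6 FMR1 FLAG peaks of U2SURP. The share for the whole FMR1 FLAG list was not computed, so this count does not set U2SURP apart. At chr3:142756949-142756974, 36.6 kb into the gene, FMR1 FLAG had its highest U2SURP peak, with a log2 fold of 4.67. FLAG-only had log2 folds of 4.40 at 100-175 kDa and 3.77 at 175-250 kDa, and V5-only had 3.16 at 100-175 kDa and 3.67 at 175-250 kDa. FMR1 FLAG, 2 FLAG-only libraries and 1 V5-only library also had a significant peak at 54.8 kb. The most extensive U2SURP position, chr3:142773782-142773962, had a −log10 p of 47.4 in FLAG-only and 33.8 in V5-only at 125-200 kDa, the highest of each antibody in the gene.

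Over all 25 libraries the significant peaks merged into 91 regions in the 4 genes, 49 in SRCAP, 31 in U2SURP, 9 in HMGXB3 and 2 in PRPF38B. Of the 91 regions, 39 were significant in at least 2 libraries and none in more than 5. PRPF38B had the fewest sites, namely the HNRNPC site and its V5-only neighbour. In HMGXB3 the significant peaks came from HNRNPC, by which the gene was chosen, from FMR1 and from 1 FLAG-only library, at 9.51 kb (log2 fold 4.29). SRCAP had more significant peaks of both proteins, and the FMR1 FLAG interval in HMGXB3 included the share of its list. In SRCAP all 5 proteins had at least 1 significant peak. In U2SURP 65 of the 75 significant peaks came from tag-only libraries, which also held 449 of its 678 called peaks. Of these 449, 14.5% (11.5% to 18.0%) were significant, against 7.76% over the FLAG-only lists and 3.14% over the V5-only lists. The 65 include 19 from FLAG-only and 13 from V5-only at 125-200 kDa.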

How the data were processed

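eCLIP libraries of HEK293T cells were represented by 25 deposited peak lists, 1 per immunoprecipitation library, and 18 input samples entered only through the authors' normalisation. Each list gave position, strand, the authors' −log10 p and the authors' log2 fold over the size-matched input, as the deposited columns show, without a header. The build is hg19, and cutadapt, STAR, GATK, Picard and SAMtools were named without versions, per the submitters' processing notes. Library depth in reads is unknown, and no source used here names the peak caller.

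Lists were filtered at a −log10 p and a log2 fold of at least 3 and compared by same-strand overlap (minimum 1 nt) with Python 3.11.15, numpy 2.4.6, pandas 2.3.3 and scipy 1.17.1. Region merging and the sign-flip test were tested on simulated data, and the overlap of intervals and the permutation of labels on fixed examples. A count of 0 was given the limit of 3 counts where the text says what it allows, and the upper Wilson limit where an interval is named. FLAG-only and V5-only numbers per gene were compared over 7 gel ranges with an exact permutation of signs, two-sided, paired because the labels give both antibodies the same ranges and, per range, 1 input. The p-values are unadjusted over 4 tests. Nothing in the labels says that these libraries came from separate cultures, so p-values measure a spread that may be technical. Within each gene, the HNRNPC regions named come in order of the number of HNRNPC libraries and then of mean log2 fold, and for other libraries the significant peak of highest log2 fold is named. Further SRCAP and U2SURP positions, and the seventh HNRNPC region of SRCAP, were named after their values were seen. The 4 genes and all choices were made with earlier results of these data known. Alternatives were a stricter and a looser threshold, whole peaks inside genes, 50% overlap of both peaks, scaling per 1000 significant peaks, no pairing, and leaving out 125-200 kDa. Exon, intron and sequence features were not analysed here, because the genome used by the files was not among the references.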

Additional observations from a re-analysis of the deposited data

Results flagged for a closer look

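Among the 6 sets of 7 tag-only libraries that were not all at the same number of significant peaks in a gene, 5 had a library far from the other 6. For continuous values chance alone sets apart about 1 in 20. That rate does not hold for small counts with many ties, so the number of sets is no evidence of anything beyond chance. In U2SURP the library at 125-200 kDa stood apart with both antibodies, with 19 significant peaks in FLAG-only, where the next highest library had 8, and 13 in V5-only, where the next highest had 1. In SRCAP it stood apart in V5-only, with 8 significant peaks against a next highest of 2. The whole lists of this range had the highest shares of significant peaks of their antibody, 22.1% in FLAG-only and 11.5% in V5-only, and both shared 1 input. The part of that input in these counts was not tested. The other 2 sets rest on single peaks, where any library that is not at 0 stands apart by construction. FLAG-only at 75-150 kDa had 1 significant peak in HMGXB3 and V5-only at 75-150 kDa had 1 in PRPF38B, with 0 in each of the other 6 ranges.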

How the results depend on the processing

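Of 43 alternative values over 13 results, 30 did not reverse direction or cross the threshold, or stayed within 1.5 times for a count. The 30 include differences between FLAG-only and V5-only that became 0, in HMGXB3 at the stricter threshold and in PRPF38B at the stricter and the looser one. With the −log10 p threshold raised to 5, the significant peaks in the 4 genes numbered 2 in HNRNPC V5 isoform 1 (from 6), 5 in V5 isoform 2 (from 9) and 3 in HNRNPC wild type (from 5), and 0 regions were significant in all 3 libraries, against 10 over the genome. The 4 shared sites therefore depend on the threshold of 3. At a log2 fold of at least 2, counts were 21 in HNRNPC V5 isoform 2, 155 in the 8 libraries of other proteins, 234 in FLAG-only and 120 in V5-only, and 4 regions, in the same 4 genes, were significant in all 3 HNRNPC libraries. The difference between FLAG-only and V5-only in SRCAP turned to −0.429 at the stricter threshold (exact sign-flip p = 0.688, n = 7 ranges), from 0.714. In U2SURP the difference of 4.43 lost its call without the pairing by gel range (exact permutation p = 0.168 over 14 libraries) and, as 0.849, per 1000 significant peaks (exact sign-flip p = 0.0625, n = 7 ranges). It was 4.14 at the stricter threshold (exact sign-flip p = 0.0313) and 13.9 at the looser one (exact sign-flip p = 0.0156). Leaving out 125-200 kDa, an alternative for the shares chosen after seeing the data, moved the share of significant U2SURP peaks to 14.2% in FLAG-only and 2.14% in V5-only. Read depth is unknown, so a site missing from a list may lie below what that library could detect.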
